A study of Mus musculus with 8 samples.

Results

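The genes examined here encode the enzymes that carry out the later steps of mitochondrial fatty acid beta-oxidation, the steps that follow the acyl-CoA dehydrogenases. They are Hadha, Hadhb, Hadh, Echs1, Eci1, Eci2, Acaa2, Decr1 and Hsd17b10. They were chosen by name and function (hydratase, hydroxyacyl-CoA dehydrogenase, thiolase, isomerase and reductase), and all 9 were found once each among the 55880 genes of the deposited count table. The RNA came from small intestinal crypts of mice, where stem cells and their dividing progeny sit at the base of the villi. The labels give 8 libraries, all from C57BL/6N mice and all from a series titled as before irradiation, so no group had been irradiated. Of these, 4 carry the genotype WT and 4 the genotype miR-29ab1-/-, a deletion of the gene pair that encodes the microRNAs miR-29a and miR-29b-1. The labels name no Cre driver, age, sex, litter or batch, and do not say whether a library came from 1 animal or from several. The p-values therefore weigh group differences against the spread between these libraries, which need not be that between animals. The series title links this microRNA pair, the fate of intestinal stem cells and energy from fatty acid oxidation, which is the question these enzymes bear on.

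Beta-oxidation shortens a fatty acyl-CoA by repeating a cycle in the mitochondrial matrix. After the first dehydrogenation, an enoyl-CoA hydratase adds water, a hydroxyacyl-CoA dehydrogenase makes a ketoacyl-CoA and passes electrons to NAD+, and a thiolase releases acetyl-CoA. For long chains all of these reactions are done by the mitochondrial trifunctional protein at the inner membrane, built from the subunits encoded by Hadha and Hadhb. For shorter chains they are done by separate soluble enzymes, encoded by Echs1, Hadh and Acaa2. Unsaturated fatty acids need the auxiliary enzymes encoded by Eci1, Eci2 and Decr1, which move or reduce double bonds. In the small intestine, enterocytes of the villus take up dietary fat, and fatty acid oxidation is also active in the stem and progenitor cells of the crypt.

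The microRNAs named in the genotype share one seed, the stretch that pairs with target messages. The mature sequences below, from RefSeq on GRCm38.p6, are shown so that the site searched for in the 9 messages can be read from them. Capitals mark the seed, bases 2 to 8 counted from the 5′ end.
miR-29a-3p (chr6:31062673-31062694, minus strand): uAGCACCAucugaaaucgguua
miR-29b-3p (chr6:31063025-31063047, minus strand, and a second copy on chromosome 1): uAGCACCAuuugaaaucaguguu
miR-29c-3p (chr1:195037600-195037621, plus strand): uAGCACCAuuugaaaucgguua
The gene of the third sequence and the chromosome 1 copy of miR-29b-3p lie outside the deleted pair. The seed pairs with TGGTGCT in a message, and with TGGTGCTA where the base opposite the first position is an A. None of the 9 genes held TGGTGCT in its longest annotated 3′ UTR (GENCODE M21), while 1910 of the 12374 tested genes with a 3′ UTR of at least 50 bases did, 15.4%. None of the 9 held TGGTGCTA (3.13% of the 12374 genes did), and none held even the 6-base core GGTGCT (33.3% did). The 9 3′ UTRs ran from 116 bases in Hsd17b10 to 1798 bases in Decr1, and 7 of them were under the 1160-base median of the genes searched. Over the whole coding transcript, TGGTGCT was found once, in Hadha, outside the 3′ UTR. A search for these letters says nothing of pairing without a full seed match.

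The libraries held between 13879472 and 17368666 counts each. The locus itself was examined first, as a check of the labels. Mir29a had 0 counts in every library, and Mir29b-1 had 0 counts in the wild-type libraries but 2 to 7 in every library with the knockout label. Lncpint, a noncoding RNA of the same locus, had 11 to 16 counts in the wild-type libraries and 1831 to 2608 in those labelled knockout. The labels do not say which bases are missing, so whether these reads go against the label cannot be told. Such libraries do not measure the mature microRNA. The groups are therefore named by label, and each direction given is that of the labels. The epithelial markers Epcam, Cdh1, Krt8, Krt18, Krt19, Cdx1 and Cdx2 summed to between 6878 and 10830 CPM in every library (counts scaled to one common library size), while the list of 10 stromal, muscle and endothelial markers summed to between 9.42 and 53.6 CPM, with Cdh5 and Kdr at 3 counts or fewer. The 18 enterocyte markers summed to 22075, 42117, 39970 and 37136 CPM in wild-type replicates 1 to 4, and to 33635, 41745, 18074 and 92593 CPM in knockout-labelled replicates 1 to 4. Replicate 4 of the knockout label thus had the highest enterocyte signal and replicate 3 of that label the lowest. The 12 cycling-cell markers summed to 617 CPM in knockout-labelled replicate 4, 974 to 1460 CPM in the others of that label and 1078 to 1510 CPM in the wild-type libraries. No single gene of any marker list passed the edgeR threshold between the groups, but several lists lay to one side of 0. The log2 fold change was above 0 for 16 of 18 enterocyte markers (median 0.36) and 11 of 11 Paneth cell markers (median 0.44), and for 0 of 12 cycling-cell markers (median -0.32), 0 of 7 tuft cell markers tested (-0.49) and 0 of 7 B and plasma cell markers tested (-0.94). Also above 0 were 10 of 12 markers of crypt base columnar stem cells (median 0.10) and 4 of 4 red blood cell markers tested (1.47). For T cells it was 2 of 11 markers (-0.35), for myeloid cells 0 of 7 tested (-0.50) and for stroma 0 of 3 tested (-0.21). The goblet cell (3 of 8), enteroendocrine (4 of 9) and epithelial (3 of 7) lists were mixed. The Paneth markers summed to 25070 to 31597 CPM in the wild-type libraries and to 21752 to 67028 CPM in those labelled knockout. The part of these shifts in the values of the 9 genes was not tested beyond the enterocyte covariate given with the library profiles. In bulk RNA, fewer cells of a type and less RNA per cell cannot be told apart.

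No difference between the groups was detected for any of the 9 genes. All 9 passed the filter on low counts, and 0 of 9 passed the threshold in edgeR's quasi-likelihood test (Benjamini-Hochberg adjusted p under 0.05), the smallest unadjusted p being 0.282 for Decr1. Over all 14897 genes tested, 3 passed, all of them higher in the libraries labelled knockout, or 0.0201% of the genes. At an unadjusted p under 0.05, 0 of the 9 genes were called, against 402 genes or 2.7% of all those tested, and limma-voom also called 0 of the 9 at that level. DESeq2 gave 0 of 9 at either level, against an adjusted call for 22 of 14851 genes, 0.148%. The CPM ranges of the groups overlapped for every one of the 9 genes, and failed to overlap for 228 genes, 1.53% of those tested. At such shares fewer than 1 of 9 genes would be called, so the counts do not set the 9 apart from other genes.

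Of the 9 log2 fold changes (labelled knockout over wild type), 2 were above 0 and 7 below, with a median of -0.06, beside 52% above 0 and a median of 0.011 over all genes tested. The split was not stable: 4 were above 0 by limma-voom, 1 in edgeR without wild-type replicate 2, 4 without knockout-labelled replicate 3 and 5 without wild-type replicate 3. The median absolute value of the 9 was 0.06, against 0.15 over all genes. The SE of the 9 ran from 0.11 (Echs1) to 0.22 (Acaa2), beside a median SE of 0.21 over all genes. Genes of like level were not compared, so the smaller value does not set the 9 apart. The 95% intervals were narrow enough to bound the differences. The widest bound away from no change was a 1.59-fold increase, for Hadh, and no interval reached a 2-fold change in either direction. In the authors' deposited table the log2 fold changes of the 9 genes ran from -0.18 (Decr1) to 0.19 (Hadh), with the adjusted p listed as 1 for each.

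**Figure D1:**
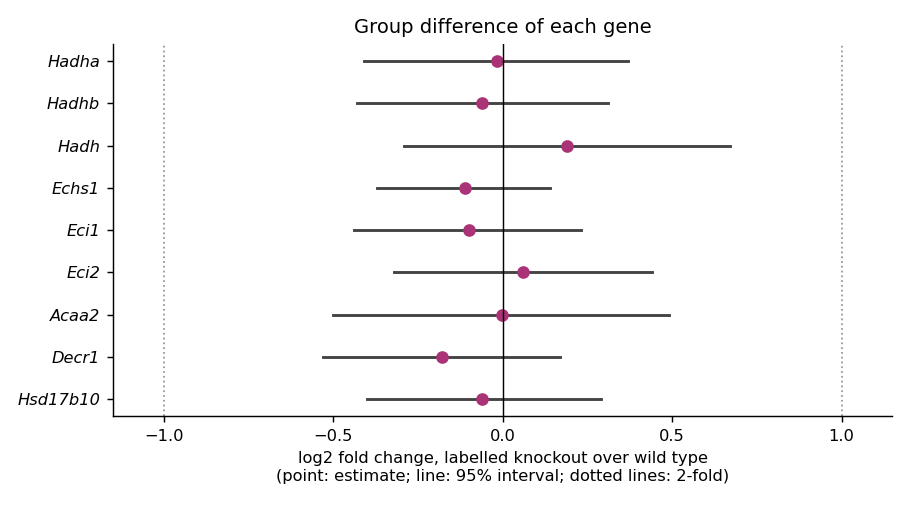
Log2 fold change of each of the 9 genes, labelled knockout over wild type (x axis), from edgeR, with the 95% interval as a line (4 libraries per group). Every interval crosses 0 and lies inside the dotted 2-fold lines, and the upper end for Hadh, 0.67, is the farthest from 0.

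Hadha encodes the alpha subunit of the trifunctional protein, which holds the long-chain hydratase and hydroxyacyl-CoA dehydrogenase activities. Its level was 275, 307, 415 and 309 CPM in wild-type replicates 1 to 4, and 331, 310, 271 and 380 CPM in knockout-labelled replicates 1 to 4. Wild-type replicate 3 was the highest of the 8 and knockout-labelled replicate 3 the lowest, and the ranges overlapped. The group means were 326 ± 60.8 and 323 ± 45.3 CPM (SD, n = 4 each), and the log2 fold change was -0.016 with a standard error (SE) of 0.17 (adjusted p = 0.998, edgeR).

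Hadhb encodes the beta subunit, which holds the long-chain thiolase. It was counted at 96.2, 120, 161 and 129 CPM in the wild-type libraries and at 132, 114, 108 and 132 CPM in the libraries labelled knockout. As for Hadha, wild-type replicate 3 was the highest. The lowest was wild-type replicate 1, so the wild-type range enclosed that of the other group. The means of 127 ± 26.9 and 121 ± 12.2 CPM (SD, n = 4 each) put the log2 fold change at -0.06 with SE 0.16 (edgeR adjusted p = 0.994).

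Both subunit genes lie on chromosome 5 and are read outward from a shared start region. Hadha (ENSMUSG00000025745) occupies 30118304 to 30155162 on the minus strand and Hadhb (ENSMUSG00000059447) 30155248 to 30184593 on the plus strand (GRCm38). These GENCODE starts are 86 bases apart. RefSeq places the start of Hadha at 30154980 and that of Hadhb at 30155253, which is 273 bases apart. The stretch between the GENCODE starts is shown because it separates the genes in either annotation. It is taken from RefSeq on GRCm38 and written 5′ to 3′ on the plus strand, toward Hadhb, with CpG dinucleotides in capitals.
Hadha and Hadhb start region, chr5:30155163-30155247: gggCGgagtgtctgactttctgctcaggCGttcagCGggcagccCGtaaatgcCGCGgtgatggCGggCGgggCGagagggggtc
These 85 bases hold 9 CpG dinucleotides and are 69.4% G or C. Among plus-strand protein-coding genes of GENCODE, 273 of 10960, or 2.49%, start as close as this to a protein-coding gene on the other strand without overlapping it.

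Across the 8 libraries the levels of the 2 subunit genes varied together. The Pearson correlation of their log2 CPM was 0.90 (exact permutation p = 0.00119, adjusted over 36 pairs of genes p = 0.0429), and Spearman's rho was 0.88 (exact permutation p = 0.00724, adjusted p = 0.13). Without wild-type replicate 3 and knockout-labelled replicate 4, the libraries farthest from the median of Hadha, r was 0.86. The ratio of Hadhb to Hadha counts stayed between 0.347 (knockout-labelled replicate 4) and 0.419 (wild-type replicate 4). Between the groups the log2 ratio per length differed by -0.032, from -0.40 ± 0.11 to -0.43 ± 0.098 (SD, n = 4 each; exact two-sided permutation test over 70 arrangements, p = 0.743).

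The Hadhb counts carry an uncertainty of their own. Its message is nearly identical to 2 processed pseudogenes (copies of a spliced message inserted elsewhere in the genome). Gm13910 (ENSMUSG00000063684, chromosome 2, 108948806 to 108950233, plus strand) matches it at 99.8% over 1428 bases, and Gm9108 (ENSMUSG00000115819, chromosome 15, 103586944 to 103588368, minus strand) at 97.6% over 1426 bases. Gm13910 was assigned 600 to 1012 counts in each library and 5992 in all, and Gm9108 207 in all. Of the summed counts of Hadhb and both copies, 25.5% (knockout-labelled replicate 1) to 30.7% (wild-type replicate 2) lay on the copies. The sources used here do not give how the counter assigned reads that match several places.

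Adding the copies to Hadhb, a choice made after the data were seen, did not change the comparison. The sum was 179 ± 34.4 CPM in wild type and 170 ± 14.6 CPM under the knockout label (SD, n = 4 each), so the log2 fold change was -0.081 with SE 0.16 (edgeR adjusted p = 0.994). The ratio of the sum to Hadha was 0.491 to 0.595, in place of 0.347 to 0.419. The sum kept its correlation with Hadha (r = 0.90, exact permutation p = 0.00166, and rho = 0.86, exact permutation p = 0.0107), with r = 0.79 when the 2 libraries farthest from the median were left out.

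**Figure D2:**
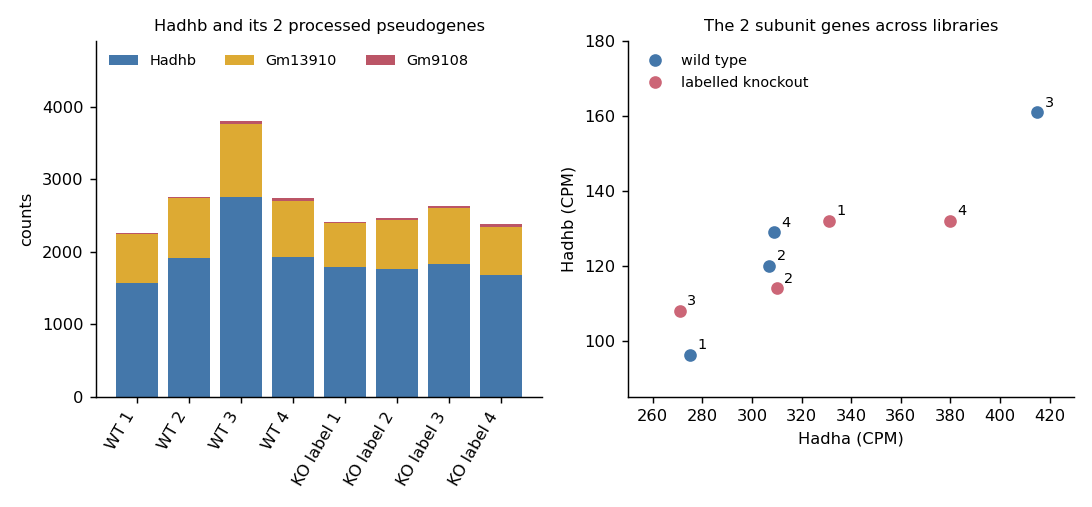
Left, counts of Hadhb and of its pseudogene copies Gm13910 and Gm9108 in each library (y axis, counts not scaled for depth). Right, Hadhb against Hadha in CPM, one point per library numbered by replicate. The copies take 25.5% to 30.7% of each bar, and the points rise from wild-type replicate 1 and knockout-labelled replicate 3 to wild-type replicate 3.

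Echs1 encodes the soluble short-chain enoyl-CoA hydratase, which also acts in the breakdown of valine. It lies on chromosome 7 (ENSMUSG00000025465, 140105710 to 140116476, minus strand). Its level was 108, 101, 92.4 and 112 CPM in wild-type replicates 1 to 4, and 100, 93.1, 105 and 84 CPM in the libraries labelled knockout. The spread was the smallest of the 9 genes, with a coefficient of variation of 9.17% over the 8 libraries. The means of 103 ± 8.5 and 95.4 ± 8.94 CPM (SD, n = 4 each) gave a log2 fold change of -0.11 (SE 0.11, 95% interval -0.37 to 0.14, edgeR adjusted p = 0.994). Echs1 shares 678 bases with Paox, a gene on the opposite strand with 2246 counts over the 8 libraries. The library kit marks strand, but whether the counting used strand is not stated in these sources, so part of the counts could belong to Paox.

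Hadh encodes the soluble hydroxyacyl-CoA dehydrogenase for medium and short chains (ENSMUSG00000027984, chromosome 3, 131233419 to 131272101, minus strand). It was the member with the largest difference of group means above 0. Its level was 485, 493, 549 and 502 CPM in the wild-type libraries, and 705, 583, 364 and 659 CPM in those labelled knockout. In that group 3 libraries lay above every wild-type library and replicate 3 lay below all of them. The means were 507 ± 28.6 and 578 ± 151 CPM (SD, n = 4 each), a log2 fold change of 0.19 (SE 0.21, 95% interval -0.29 to 0.67, edgeR adjusted p = 0.994). Leaving out knockout-labelled replicate 3, the library with the lowest enterocyte markers, the log2 fold change was 0.35 with an adjusted p of 0.576 by the same edgeR test. Leaving out replicate 1 of that label it was 0.076.

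Hsd17b10 encodes another hydroxyacyl-CoA dehydrogenase of the matrix, which acts on branched-chain and steroid substrates and is also a subunit of mitochondrial RNase P, the enzyme that trims mitochondrial transfer RNAs. It lies on chromosome X (ENSMUSG00000025260, 152001845 to 152004442, plus strand). It was counted at 51.4, 46.6, 47.7 and 53.1 CPM in the wild-type libraries and at 58.4, 47, 50.4 and 34.7 CPM in those labelled knockout. The highest and the lowest of the 8 values were both in the knockout-labelled group, in replicates 1 and 4. The means of 49.7 ± 3.06 and 47.6 ± 9.87 CPM (SD, n = 4 each) put the log2 fold change at -0.06 with SE 0.15 (edgeR adjusted p = 0.994). It was 0.067 without knockout-labelled replicate 4.

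Hsd17b10 and Hadh, the dehydrogenases outside the trifunctional protein, had their most extreme ratios in knockout-labelled replicates 3 and 4. Those libraries had the lowest and highest enterocyte sums. Wild-type replicate 1 also had a low sum (22075 CPM), but about the same ratio as wild-type replicate 4 (37136 CPM). The ratio of Hsd17b10 to Hadh counts was 0.106, 0.0944, 0.0868 and 0.106 in wild-type replicates 1 to 4. In the libraries labelled knockout it was 0.0828, 0.0807, 0.139 and 0.0527 for replicates 1 to 4, so replicate 3 had the highest and replicate 4 the lowest ratio of all 8. The log2 ratio per length differed between the groups by -0.23 (exact two-sided permutation test over 70 arrangements, p = 0.514). Without knockout-labelled replicate 3, it differed by -0.47 with an exact permutation p of 0.0286, the smallest that its 35 arrangements can give. Without replicate 4 of that label it differed by -0.0058. The exact permutation p of 0.0286 is unadjusted, and is the smallest of any ratio compared here with a library left out. The part of the cell mixture in this ratio was not tested.

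Acaa2 encodes the soluble medium-chain thiolase (ENSMUSG00000036880, chromosome 18, 74779197 to 74806208, plus strand). Its level was 112, 135, 199 and 170 CPM in wild-type replicates 1 to 4, and 199, 150, 112 and 154 CPM in the libraries labelled knockout. The same low and high values thus occurred in both groups. It was the most variable of the 9 genes, with a coefficient of variation of 22.3% over the 8 libraries, and the one with the closest group means, 154 ± 38.1 and 154 ± 35.9 CPM (SD, n = 4 each). The log2 fold change was -0.0019 (SE 0.22, 95% interval -0.50 to 0.49, edgeR adjusted p = 0.999).

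Eci1 and Eci2 encode enoyl-CoA isomerases, which shift a double bond to the position the hydratase can use; the Eci2 product is found in mitochondria and in peroxisomes. Eci1 (ENSMUSG00000024132, chromosome 17, 24426641 to 24439348, plus strand) was at 83, 52.4, 60.3 and 73 CPM in the wild-type libraries and at 64.5, 56.3, 62.3 and 67 CPM in those labelled knockout. All 4 values of the second group fell inside the wild-type range. The means were 67.2 ± 13.5 and 62.5 ± 4.57 CPM (SD, n = 4 each; log2 fold change -0.10, SE 0.15, edgeR adjusted p = 0.994).

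Eci2 (ENSMUSG00000021417, chromosome 13, 34977748 to 35027096, minus strand) was at 37.7, 38.7, 55.2 and 48.6 CPM in the wild-type libraries and at 47, 39.1, 43.3 and 58.7 CPM in those labelled knockout. Wild-type replicate 1, which had the most Eci1, had the least Eci2. The means of 45 ± 8.36 and 47 ± 8.41 CPM (SD, n = 4 each) put the log2 fold change at 0.06 with SE 0.17 (edgeR adjusted p = 0.994). Eci2 overlaps the antisense gene Gm16984 along 12705 bases, but that gene had 198 counts over the 8 libraries.

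Decr1 encodes the mitochondrial dienoyl-CoA reductase, needed for polyunsaturated fatty acids (ENSMUSG00000028223, chromosome 4, 15917240 to 15945507, minus strand). Its level was 72.1, 101, 93.4 and 114 CPM in the wild-type libraries and 87, 80.7, 72.7 and 96.5 CPM in those labelled knockout. Of the 9 genes it had the lowest log2 fold change, -0.18 (SE 0.16, 95% interval -0.53 to 0.17, edgeR adjusted p = 0.994), from means of 95.3 ± 17.6 and 84.2 ± 10 CPM (SD, n = 4 each). Wild-type replicate 1 had the lowest value of all 8, so the order of the group means was not that of every library.

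**Figure D3:**
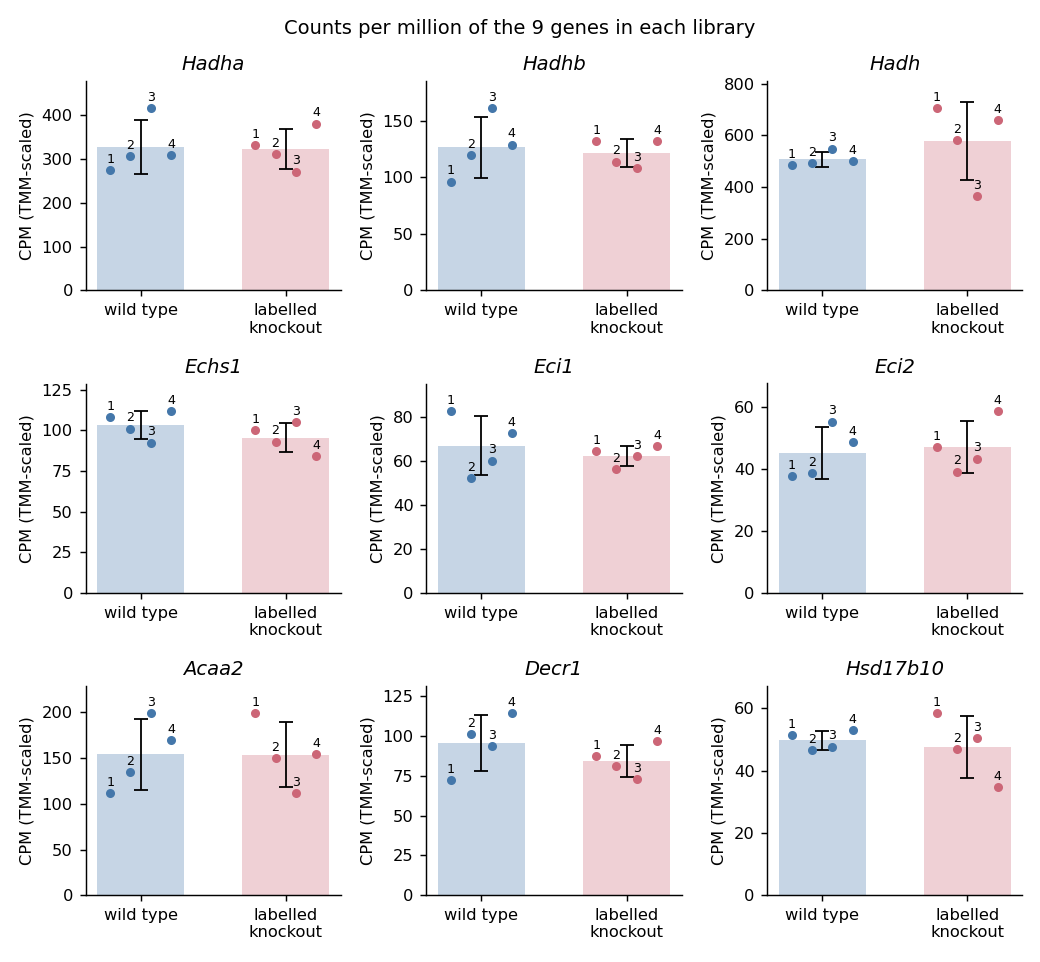
CPM of each of the 9 genes (y axis, scaled to the library sizes of edgeR) in the 4 wild-type and 4 knockout-labelled libraries. Points are libraries numbered by replicate, bars are group means and error bars are SD. The groups overlap in every panel. Hadh and Hsd17b10 are spread more widely in the libraries labelled knockout, and Hadha, Hadhb, Eci1 and Decr1 in the wild-type libraries. Echs1, Eci2 and Acaa2 have nearly the same SD in both groups.

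The balance between enzymes was compared with 6 ratios, each taken within a library. Per length, the log2 ratio of Hadh to Hadha differed between the groups by 0.15 (labelled knockout minus wild type; exact permutation p = 0.4) and that of Echs1 to Hadha by -0.11 (exact permutation p = 0.571). Both compare a soluble enzyme with the trifunctional protein. The ratio of the thiolases, Acaa2 to Hadhb, differed by 0.043 (exact permutation p = 0.714), and that of the isomerases, Eci2 to Eci1, by 0.15 (exact permutation p = 0.686). All 6 had an adjusted p of 0.743 (exact permutation tests, Benjamini-Hochberg over the 6), and the smallest p that 4 libraries against 4 allow is 0.0286. Among single libraries, the Eci2 to Eci1 ratio of counts was the widest of these last 4, from 0.455 in wild-type replicate 1 to 0.915 in wild-type replicate 3. Without wild-type replicate 1 the difference between the groups for this pair was -0.041, so its sign rested on that library.

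The 9 genes did not move as one block across the 8 libraries. Of their 36 pairs, 20 had a Pearson r above 0, the median r was 0.13 and the range was -0.74 to 0.90. By exact permutation with adjustment over the 36 pairs, 2 pairs passed for Pearson's r and 0 for Spearman's rho. One was Hadha with Hadhb, given above. The other was Hadhb with Acaa2, the 2 thiolase genes, at r = 0.88 (exact permutation p = 0.0027, adjusted p = 0.0487) and rho = 0.90 (exact permutation p = 0.00456, adjusted p = 0.13), with r = 0.84 without wild-type replicates 1 and 3. The lowest r was that of Hadha with Echs1, -0.74 (exact permutation p = 0.0369, adjusted p = 0.182; rho = -0.79, exact permutation p = 0.0279, adjusted p = 0.144). This r was -0.40 without wild-type replicate 3 and knockout-labelled replicate 4, the libraries farthest from the median of Hadha, so its size depended in part on them. Leaving out the extremes of 1 gene also narrows its range. The libraries are of both groups and differ in enterocyte signal, which these correlations share.

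By library, the members' deviations from their own means followed no single order. In knockout-labelled replicate 1, 8 of the 9 genes lay above their mean over the 8 libraries, and in knockout-labelled replicate 2 only 1 did, Hadh. The lowest values of 3 genes each were in wild-type replicate 1 (Hadhb, Eci2 and Decr1) and in knockout-labelled replicate 3 (Hadha, Hadh and Acaa2), the libraries with the lowest enterocyte marker sums. Acaa2 was at 112 CPM in each of them. In those libraries the median deviation was -0.22 and -0.18 on the log2 scale. Knockout-labelled replicate 4, with the highest enterocyte sum, held the highest Eci2 (0.37 above its mean, log2) and the lowest Hsd17b10 (-0.47) and Echs1. With the enterocyte marker mean as a covariate in edgeR, the 9 log2 fold changes ran from -0.21 (Decr1) to 0.11 (Hadh) and 0 of 9 passed the threshold. The part of the enterocyte share in the members' values was otherwise not tested.

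**Figure D4:**
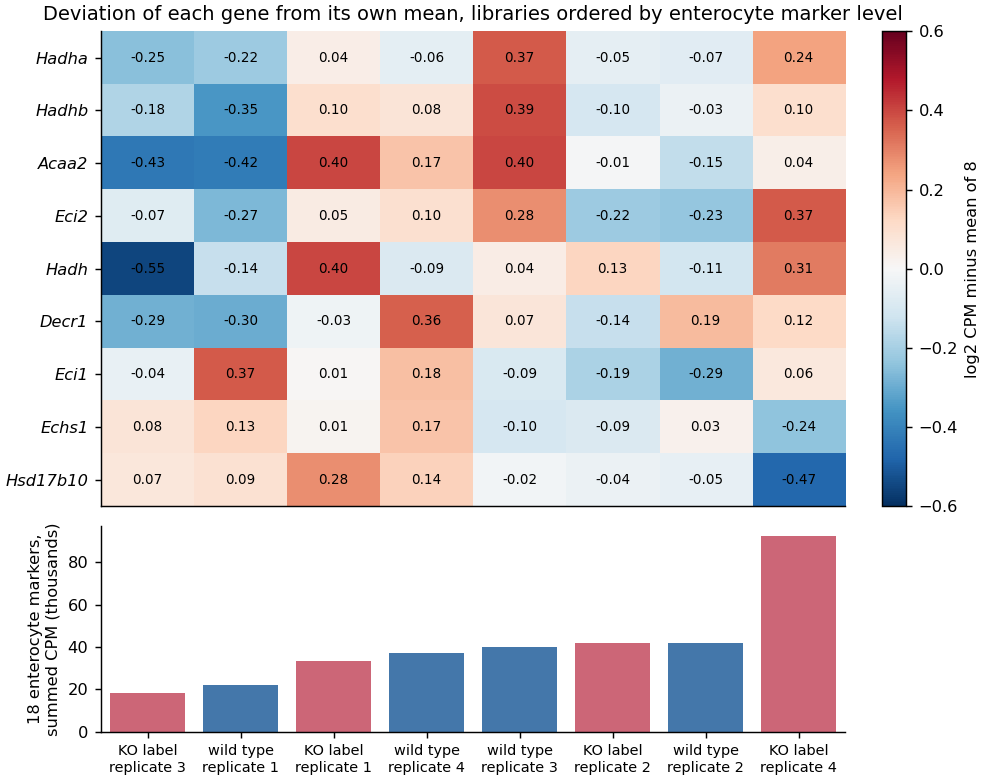
Upper panel, log2 CPM of each gene minus its mean over the 8 libraries, with libraries ordered from the lowest to the highest enterocyte signal. Lower panel, summed CPM of the 18 enterocyte markers in the same libraries. Hadha, Hadhb, Acaa2, Hadh and Decr1 are low in the first 2 columns, and Hsd17b10 and Echs1 are lowest in the last.

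The levels of the 9 messages were compared with each other per kilobase, since longer messages give more reads. On the FPKM scale the authors deposited, Hadh was the highest at 108 ± 21.5 and Acaa2 next at 101 ± 22.5 (SD, n = 8), and Hadh was above Acaa2 in 5 of 8 libraries, so these neighbours did not separate. Hsd17b10 (37.1 ± 5.15), Hadha (36.9 ± 5.71), Eci1 (30.2 ± 4.42), Decr1 (22.9 ± 3.79) and Hadhb (18.6 ± 2.96) followed, each overlapping the next in FPKM. Echs1 (11.9 ± 1.07) lay below Hadhb in all 8 libraries, and Eci2 was the lowest at 8.24 ± 1.43 FPKM. Among the 16975 protein-coding genes with a count, the 9 mean FPKM stood between the percentiles 70.7 (Eci2) and 97.6 (Hadh).

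Part of that order comes from the length used. The deposited gene length, whose definition was not checked, was compared with that of the longest-coding transcript (GENCODE M21, a choice made after the data were seen). It was 5.32-fold as long for Echs1 (8286 against 1557 bases) and equal for Acaa2 (1516 bases). For the other 7 genes the lengths differed by 1.31-fold to 3.88-fold. Per kilobase of that transcript, with counts scaled as for CPM, Hadh stood alone at 303 ± 60.1, above Acaa2 (102 ± 22.6) in all 8 libraries and with no overlap. Hadha (80.8 ± 12.4), Echs1 (63.8 ± 5.85), Hadhb (60.6 ± 9.52), Eci1 (57 ± 8.5) and Hsd17b10 (49.1 ± 6.91) followed on this scale, each overlapping the next. Eci2 (32.3 ± 5.49) and Decr1 (30.3 ± 4.91) were the lowest and overlapped, with Eci2 above Decr1 in 6 of 8 libraries. Echs1 thus moved from the eighth place to the fourth. The place of Hadhb depends on its pseudogene copies. Without them it was below Hadha on both scales, but with their counts added it was 0.962 to 1.17 times Hadha per kilobase of coding transcript, above it in 6 of 8 libraries. With the deposited lengths the sum was 0.649 to 0.787 times Hadha. The order of the 2 subunit genes is therefore not settled by these counts.

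**Figure D5:**
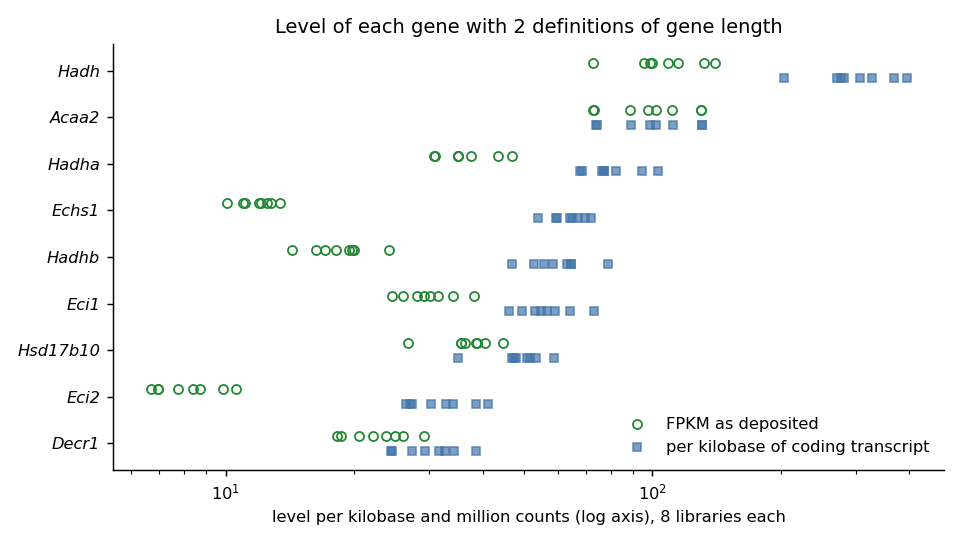
Level of each gene in each of the 8 libraries on a log axis, per kilobase at equal depth, with the deposited gene length (circles) and with the coding transcript length (squares). Hadh has the highest mean with either length, but with the deposited length it overlaps Acaa2. Echs1 shifts most, from a mean of 11.9 to 63.8.

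The genes whose profile over the 8 libraries was most like the mean of the 9 were ranked among 9780 genes with a mean log2 CPM above 3. They were Spopl (Pearson r = 0.968), Ech1 (0.958), 2010001A14Rik (0.933), Acadm (0.931) and Cox4i1 (0.929). Ech1 encodes a dienoyl-CoA isomerase of mitochondria and peroxisomes, Acadm the medium-chain acyl-CoA dehydrogenase of the first step, and Cox4i1 a subunit of cytochrome c oxidase. These are the top of a ranking over 8 points and carry no test. None of the 5 passed the edgeR threshold between groups, with log2 fold changes from -0.058 (Cox4i1) to 0.076 (2010001A14Rik).

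The steps around the 9 enzymes were examined with lists of genes, and in each list 0 genes passed the edgeR threshold in either direction. Of the carnitine shuttle, which brings acyl groups into the matrix, 6 genes were tested, 4 above and 2 below 0, with a median log2 fold change of 0.095. Slc22a5, the carnitine transporter of the cell membrane, had the smallest p of that list (log2 fold change 0.44, SE 0.31, edgeR unadjusted p = 0.188, adjusted p = 0.994). It was at 52.3 to 82.3 CPM in wild type and at 74.6, 84.1, 54.2 and 161 CPM in knockout-labelled replicates 1 to 4. Replicate 4 of that label had the highest enterocyte sum and replicate 3 the lowest. Of the acyl-CoA dehydrogenases and their electron carrier, 8 of 16 were above 0 and 8 below, with a median of 0.0014. Of the acyl-CoA synthetases and thioesterases, 5 of 12 were above 0 and the median was -0.076. Acsl3, which activates long-chain fatty acids, had the smallest p of that list (log2 fold change -0.38, SE 0.13, edgeR unadjusted p = 0.0135, adjusted p = 0.994).

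Peroxisomes run a parallel form of the pathway with their own enzymes. Of 16 peroxisomal genes tested, 11 were above 0 and 5 below, with a median log2 fold change of 0.11. Acaa1a, which encodes a peroxisomal thiolase, was at 214, 259, 322 and 273 CPM in the wild-type libraries and at 370, 335, 198 and 622 CPM in those labelled knockout (log2 fold change 0.51, SE 0.31, edgeR adjusted p = 0.994). Its highest and lowest values fell in knockout-labelled replicates 4 and 3, the libraries with the highest and lowest enterocyte sums. Of the thiolase genes among the members, Acaa2 was lowest in knockout-labelled replicate 3 and wild-type replicate 1, at 112 CPM in each. It was highest in knockout-labelled replicate 1 and wild-type replicate 3, at 199 CPM in each. Hadhb had its lowest and its highest value in wild-type libraries. Whether the mitochondrial and peroxisomal genes differ in this was not tested.

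Related hydratases, thiolases and dehydrogenases of other pathways had 7 of 15 genes above 0 and a median log2 fold change of -0.0092. The largest in size was Oxct1, which starts the use of ketone bodies, at -0.57 (SE 0.27, edgeR adjusted p = 0.994). Oxct1 was at 97.9 to 178 CPM in wild type and at 91.4, 95.2, 140 and 57.2 CPM in knockout-labelled replicates 1 to 4. Acat2 had the smallest p of that list (log2 fold change -0.43, SE 0.16, edgeR unadjusted p = 0.0208, adjusted p = 0.994). The propionyl-CoA and vitamin B12-dependent end steps had 1 of 7 genes above 0 (median -0.13), as did a list of the RNase P partners of Hsd17b10 with other genes of mitochondrial RNA processing and transcription (1 of 7, median -0.13). The smallest p values of the latter were those of Tfam, which packages mitochondrial DNA and starts its transcription (log2 fold change -0.22, SE 0.19, edgeR adjusted p = 0.994), and Elac2, which trims the other end of mitochondrial transfer RNAs (-0.13, SE 0.14, edgeR adjusted p = 0.994). Tfam was at 56.1 to 68.4 CPM in wild type and at 58.6, 49.6, 73.4 and 36.4 CPM in knockout-labelled replicates 1 to 4. For Oxct1 and Tfam the part of the enterocyte share was not tested. Over all genes tested the share above 0 was 52%.

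The regulators of fatty acid oxidation had 8 of 17 genes above 0 and a median log2 fold change of -0.025. Among targets of the PPAR receptors outside the pathway, 7 of 9 were above 0 with a median of 0.41, beside 16 of 18 and a median of 0.36 for the enterocyte markers. Both lists hold Fabp1 and Fabp2. The kinase gene Pdk4 was at 15.4, 11.6, 7.78 and 9.35 CPM in the wild-type libraries and at 81.1, 35.3, 22.8 and 230 CPM in those labelled knockout, with no overlap, but did not pass the adjusted threshold (log2 fold change 3.06, SE 0.69, edgeR unadjusted p = 0.00153, adjusted p = 0.994). Angptl4, a secreted inhibitor of lipoprotein lipase, was at 13.8 to 28 CPM and at 21.3 to 275 CPM in the respective groups (log2 fold change 2.38, SE 0.74, edgeR adjusted p = 0.994). In both genes the highest value was in knockout-labelled replicate 4 and the lowest of that label in replicate 3, the libraries with the highest and lowest enterocyte sums, and the part of that share was not tested. The 9 beta-oxidation genes, with log2 fold changes between -0.18 and 0.19, showed no difference of that size.

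The RefSeq promoter table held a window for 7 of the 9 genes, all but Acaa2 and Decr1. Each window reaches from 250 bases before to 50 after a start, and both strands were searched. The windows of the 7 genes were rich in G and C, at 57.7% (Hsd17b10) to 63.7% (Echs1), against a median of 52.7% over all windows. The hexamer AGGTCA, the unit recognised by many nuclear receptors, was found in 1 of the 7, Echs1, on the strand of the gene and 83 bases before the start (16.3% of the 32851 windows hold it). The DR1 motif, searched as 2 copies of that hexamer separated by 1 base and the form bound by PPAR with RXR, was found in 0 of 7 (0.0396% of all windows). The motif TCAAGGTCA, which contains the hexamer and is known for estrogen-related receptors, was found in 0 of 7 (0.423%). The NRF1 motif, GCGC, 2 bases of any kind and GCGC, was also found in 0 of 7 (6.23%). These letters not being in a window says nothing of the binding of a factor.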

How the data were processed

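Whole-number counts per gene and library were taken from the table the authors deposited. The submitters' processing notes name HISAT2 and DESeq2 and give no versions. The read counter, its use of strand, the annotation and the build were not stated. TRIzol extraction and a directional library kit are given per the labels' protocols. Coordinates equalled those of GENCODE M21 (GRCm38) for 99.5% of the 55144 identifiers found in both, and for all 9 genes reported. The FPKM values the authors deposited are counts over the deposited gene length with a scale per library, as checked on the values. The group means in the deposited table are a signal that was not used for tests. The authors' deposited table also gives log2 fold changes and p-values, which are named as theirs where printed. A second deposited table, of FPKM for 670 genes of a heat map, holds none of the 9.

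The counts of all genes went into edgeR 4.0.16 under R 4.3.3 (quasi-likelihood test, TMM factors, robust dispersions, filterByExpr, Benjamini-Hochberg adjustment over all 14897 genes, threshold 0.05), 4 libraries against 4. The SE is the absolute log2 fold change divided by the square root of F, and intervals use the t distribution of that test. CPM are scaled to TMM library sizes, with a prior count of 2 for log2 CPM. Correlations use log2 CPM and all 40320 pairings of 8 libraries. Copies were searched with BLAST against all transcripts at 95% identity or more over at least 150 bases. Scripts were tested on simulated data. Alternatives were RLE and upper-quartile factors, DESeq2 1.42.0, voom in limma 3.58.1, no filter, a filter of 5 CPM in 4 libraries, protein-coding genes alone, a replicate block, the enterocyte covariate and leaving out each library. The genes and lists were chosen with earlier results of these data known. Genes named were the 9, the 2 of each list with the smallest p or fewer, the 5 most like the mean of the 9 and 3 transcripts of the miR-29 locus. Named outside that rule were the epithelial markers, which check the tissue, Cdh5 and Kdr, the stromal markers with the fewest counts, and Paox, Gm13910, Gm9108 and Gm16984, which overlap or copy a member. Those last 6 were named after their counts were seen. Depth was 13879472 to 17368666 counts per library, reads carry no molecular identifiers, and every pair of libraries within a group differed beyond sampling noise (smallest chi-square over degrees of freedom 32.3).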

Additional observations from a re-analysis of the deposited data

How the results depend on the processing

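Under 18 alternatives each, 0 of 162 log2 fold changes of the 9 genes passed the threshold, and the smallest adjusted p was 0.576 (edgeR without 1 library). The sign changed in 7 of 90 values that kept all libraries. Hadha was 0.0019 by limma-voom, and Acaa2, at -0.0019 in the reported fit, was 0.005 with RLE size factors, 0.005 by DESeq2, 0.0096 by limma-voom, 0.0046 with the filter of 5 CPM in 4 libraries and 0.0028 among protein-coding genes alone. The number of the 9 above 0 was 4 by limma-voom. Over all genes, the number higher in the group labelled knockout was 19 by DESeq2, 5 without a filter and 0 among protein-coding genes alone, against 3, and DESeq2 gave 3 lower against 0.

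No pairing by replicate number was seen: same-numbered libraries had deviations correlated at 0.075, 0.034, -0.388 and -0.087. The labels do not say whether the numbers stand for a pairing. With the number as a replicate block, Acaa2 was at 0.002 and Hadha at -0.0073, the 9 had a median of -0.041 with 3 above 0, and 2 genes of all tested were called higher and 0 lower.

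Leaving out 1 library at a time, the sign changed in 12 of 72 values. The log2 fold change ran from -0.10 to 0.12 for Hadha, -0.17 to 0.075 for Hadhb, 0.076 to 0.35 for Hadh, -0.16 to -0.055 for Echs1, -0.21 to 0.014 for Eci1, -0.062 to 0.17 for Eci2, -0.15 to 0.14 for Acaa2, -0.29 to -0.083 for Decr1 and -0.17 to 0.067 for Hsd17b10. The median of the 9 ran from -0.12 to 0.075 and the number above 0 from 1 to 5. Over all genes 2 to 3 were called higher. The group difference of the log2 ratio ran from -0.081 to 0.0082 for Hadhb to Hadha, 0.058 to 0.28 for Hadh to Hadha, -0.28 to 0.035 for Echs1 to Hadha, -0.05 to 0.13 for Acaa2 to Hadhb, -0.47 to -0.0058 for Hsd17b10 to Hadh and -0.041 to 0.30 for Eci2 to Eci1. The cause of these shifts was not tested. With 4 libraries a group the 95% intervals, not the calls, give what these data can exclude, and the split of reads between Hadhb and its copies limits its level.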
